A study of Rattus norvegicus with 2 samples.

Results

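The ventral and the lateral lobe of the prostate were compared in saline-treated TRAP rats, a transgenic line in which SV40 T antigen driven by the probasin promoter in prostate epithelium gives rise to prostate tumours. The comparison used the 2 saline RNAs of the 4 RNAs in the study, chosen by their labels alone. The RNAs came from prostate cancer tissue of male rats that were 6 weeks old at the start, ate a control diet and received intravenous saline 2 times a week for 8 weeks. The other 2 RNAs came from rats given OBP-801, a histone deacetylase inhibitor, at 1 mg/kg on the same schedule. Each lobe had 1 two-colour array, and both arrays carried the saline RNA in Cy5, so the lobes are compared here within 1 dye. How many rats contributed to an RNA is not given in the sources used here. Each lobe rests on 1 array, so there was neither a replicate nor a test across animals, and lobe and array cannot be told apart.

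The rat prostate has separate lobes whose epithelium secretes different proteins into the seminal fluid under androgen control. Prostatein, a steroid-binding protein, is a well-known secretion of the ventral lobe, and probasin is known from the dorsal and lateral lobes. Lobe-specific secretory genes are therefore the classic difference between these tissues. Each of the 20174 gene probes on the arrays is labelled with an Ensembl rat gene ID, and the number of these IDs that the reference table used here pairs with a gene symbol is 0. No probe could be assigned to a known secretory, epithelial, stromal or immune gene, and the lobe labels were not checked against marker genes. In bulk tissue, fewer cells of a type and less RNA per cell cannot be told apart.

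Values are net signals, the median Cy5 intensity of a spot less the mean of the array's blank spots. That mean was 15.7 units with an SD of 0.813 on the ventral array and 14.2 units with an SD of 1.17 on the lateral array. A limit of 10 blank SDs on each array, 8.13 net units in ventral and 11.7 in lateral RNA, was set as the mark of a clear signal, which 12724 probes passed in ventral and 11434 in lateral saline RNA. After quantile normalization between the arrays the higher of the 2 limits lay at 12.8 normalized units and served as the floor for both lobes. Folds and log2 differences are on this normalized scale. Above the floor in at least 1 lobe were 11774 probes, 58.4% of the total. Of these, 11092 were above it in both lobes, and 341 were above it in each lobe alone, a number that quantile normalization makes equal. A technical error was available from the replicate control spots. Over the 24 spots of each positive control the log2 difference of ventral minus lateral had an SD of 0.13 and 0.12, with a mean of -0.43 for the first control and 0.26 for the second. None of these spot pairs was 2-fold apart.

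Most probes differed little between the lobes with this processing. Of the 11774 probes, 88.4% lay within 1.5-fold, and the middle 95% of the log2 differences ran from -0.83 to 0.95. At least 2-fold higher were 256 probes (2.17%) in the ventral lobe and 217 probes (1.84%) in the lateral lobe. These 2-fold calls rest on the processing, because without normalization between the arrays they became 387 and 173, and with a normexp correction and an offset of 50 they became 56 and 74. With the local background subtracted they became 1073 and 1289 of 10728 probes, with the larger number on the lateral side. In that setting 22.0% of the probes passed 2-fold in place of 4.02%. It was added after the data were seen and also set its floor by another rule, so background and floor changed together. The median log2 difference of all probes was 0.10 without normalization and -0.0035 with it. The 2-fold limit lay in the tails of the distribution, without a gap beside it. Between 1.9-fold and 2-fold lay 59 ventral and 31 lateral probes, and between 2-fold and 2.1-fold lay 40 and 31.

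**Figure D1:**
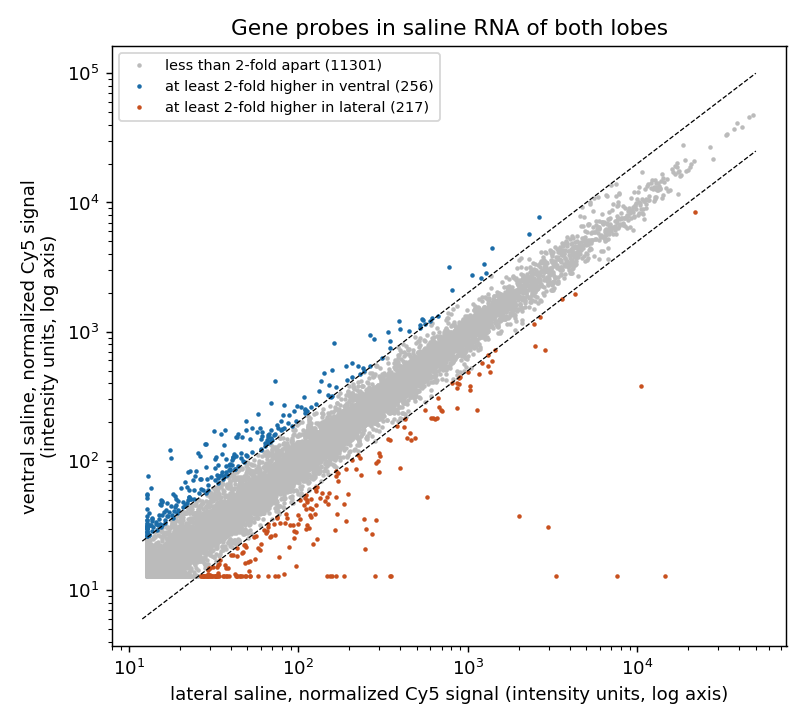
Normalized Cy5 signal of each gene probe above the floor in at least 1 lobe, lateral saline on the horizontal and ventral saline on the vertical log axis, in intensity units. Dashed lines mark 2-fold, blue points the 256 ventral and orange points the 217 lateral probes, and points along the left and lower edge are at the floor of 12.8 units. A few orange points at high lateral signal lie far below the diagonal, with no blue counterpart above it.

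The directions differed in how far they reached. Probes at least 3-fold apart numbered 53 (0.45%) on the ventral side and 72 (0.612%) on the lateral side, and at 4-fold the numbers were 20 and 38. At least 8-fold apart were 0 ventral and 19 lateral probes, of which 9 passed 16-fold, 5 passed 32-fold and 3 passed 100-fold. The lateral count at 8-fold was the higher one in each of the 10 alternative settings, but its size varied, from 0 ventral against 6 lateral probes with normexp and quantile normalization to 61 against 129 with the local background subtracted. Of the 19 lateral probes at least 8-fold apart in the main setting, 9 were above the floor in both lobes. The folds of the rest are lower bounds. Among all 2-fold calls the dimmer lobe was below the common floor in 51 of the 217 lateral and in 26 of the 256 ventral probes. Of the 51, 26 had a ventral signal that passed the ventral array's own, lower limit. Of the 26 ventral probes, the number whose lateral signal passed the lateral limit was 0. That 0 follows from the common floor, which is the lateral limit on the normalized scale. Among probes above the floor in both lobes, the largest fold was 96.2 in the lateral and 6.95 in the ventral direction, and 22 lateral against 17 ventral probes passed 4-fold. The median fold was 2.60 for the lateral and 2.40 for the ventral probes.

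**Figure D2:**
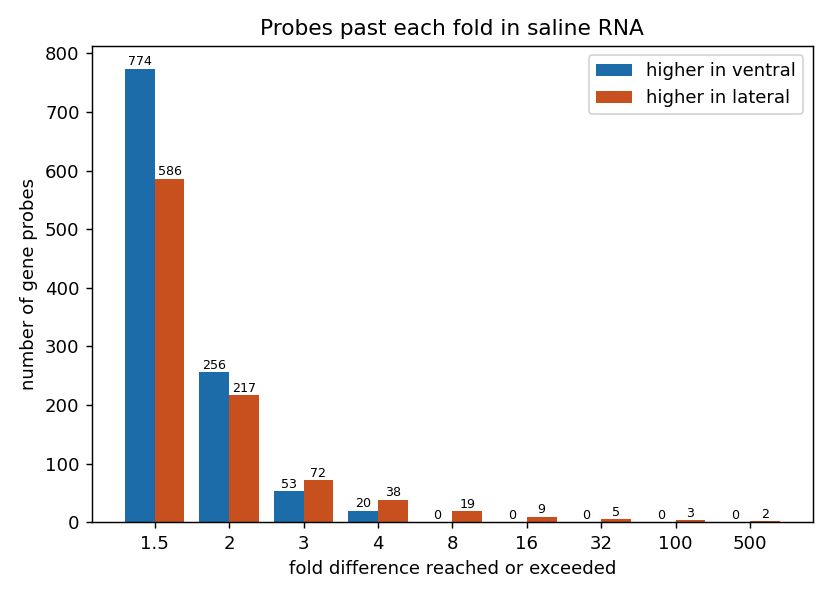
Number of gene probes (vertical axis) that reached or exceeded each fold (horizontal axis) in saline RNA, in the ventral (blue) and lateral (orange) direction. Ventral probes are the more numerous up to 2-fold and lateral probes from 3-fold on, with 0 against 19 at 8-fold.

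The 3 most lateral transcripts were abundant in that lobe and below the common floor in the other. ENSRNOG00000033972 had 8.30 net units in ventral and 15715 net units in lateral saline RNA, where it was the 33rd brightest of all gene probes. Its level was at least 1133-fold higher in the lateral lobe, a log2 difference of -10.15. ENSRNOG00000013776 had 0.868 net units in ventral and 7780 net units in lateral saline RNA. It was at least 589-fold higher in the lateral lobe, a log2 difference of -9.20. The ventral signal of ENSRNOG00000033972 just passed the ventral array's own limit of 8.13 net units but not the common floor, and that of ENSRNOG00000013776 passed neither. The lower bounds given here and below hold for the main processing alone. Among the alternative settings the smallest log2 difference was -7.92 for ENSRNOG00000033972 and -7.16 for ENSRNOG00000013776.

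The third probe in rank had the same form, with 0.165 net units in ventral and 3242 in lateral saline RNA, at least 258-fold higher in the lateral lobe. The next differed in that the ventral lobe held a measurable level. The fourth had 32.8 net units in ventral and 2931 in lateral saline RNA and was 96.2-fold higher in the lateral lobe. The fifth had 39.6 and 2006 net units and was 53.8-fold higher there. The sixth had 393 and 10977 net units and was 27.7-fold higher there, so this transcript was well expressed in the ventral lobe too. The remaining 9 of the 15 most lateral probes were dimmer, with folds down to 11.4 and lateral signals down to 142 net units. Of the 15, the fold of 10 is a lower bound. Apart from the 2 given by ID, these probes were placed by a rule that ranked folds among probes of at least 50 net units in the brighter lobe.

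The most ventral transcripts were of modest abundance and remained visible in the lateral lobe. ENSRNOG00000011205 had 125.5 net units in ventral and 16.1 in lateral saline RNA, 6.95-fold higher in the ventral lobe with a log2 difference of 2.80. ENSRNOG00000006019 had 109.9 net units in ventral and 16.4 in lateral saline RNA, 5.95-fold higher in the ventral lobe with a log2 difference of 2.57. Both lateral values were close to the floor, so a few units in the lateral lobe change these folds. Among the 15 most ventral probes the folds ran down to 4.19, and for 2 of them the fold is a lower bound. The brightest of the 15 ranked sixth, with 836 net units in ventral and 157.6 in lateral saline RNA, a 5.07-fold difference. The median signal of the 15 in their own lobe was 125.5 net units, against 336 net units for the 15 most lateral probes in theirs.

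Most of the brightest probes had similar levels in both lobes, as did the probes as a whole. Of the 100 brightest probes of the ventral lobe 87 lay within 1.5-fold of the lateral lobe. Of the 100 brightest of the lateral lobe 94 did, beside 88.4% of all 11774 probes. Both sets together comprised 119 probes. Beside 2.17% and 1.84% of all probes, 0 of the 119 passed 2-fold on the ventral side and 3 on the lateral side. The brightest of these 3 ranked 10th in the lateral lobe, with 8173 net units in ventral and 22917 in lateral saline RNA, a 2.60-fold difference. The other two were ENSRNOG00000033972 and the 27.7-fold probe described above. In the ventral direction the largest difference within the 119 was 1.97-fold, from a probe with 10494 net units in ventral and 5619 in lateral saline RNA. The brightest ventral transcript past 2-fold lay just outside this set, at rank 126 in the ventral lobe. It had 7463 net units in ventral and 2603 in lateral saline RNA, a 2.92-fold difference.

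As a share of all net signal the 217 lateral probes made 2.02% in the lateral and 0.530% in the ventral lobe. The 256 ventral probes made 1.30% in the ventral and 0.482% in the lateral lobe. Probes of at least 1000 net units in the brighter lobe were 21 of the ventral and 23 of the lateral calls. Calls were more frequent below 200 normalized units than above. With a mean of both lobes under 50 normalized units, 2.74% of 3581 probes were called ventral and 2.40% lateral. Between 50 and 200 units the shares were 2.99% and 2.12% of 3678 probes. With a mean of at least 1000 units 9 probes (0.746%) were called ventral and 14 (1.16%) lateral, of 1207 probes. This was the one class of the 4 compared in which lateral calls outnumbered ventral ones, and it rests on these few probes. Between 200 and 1000 units the counts were equal, at 39 in each direction of 3308 probes.

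The lobe differences were set beside those in OBP-801 RNA of the same lobes, measured in Cy3 on the same arrays with the same processing. Of all 11399 probes above the floor in Cy3, 382 (3.35%) were at least 2-fold on the ventral side and 273 (2.39%) on the lateral side. Of the 256 ventral probes 248 were measured there, and 184 of these (74.2%) were again at least 2-fold higher in the ventral lobe. Of the 217 lateral probes 210 were measured there, and 164 (78.1%) were again at least 2-fold higher in the lateral lobe. A ratio in the same direction was seen for 248 of 248 ventral and 208 of 210 lateral probes. The share of all probes with the same direction in both channels is not given here. The RNAs differ between the channels but the spots do not, so a fault of a spot or an array would enter both.

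**Figure D3:**
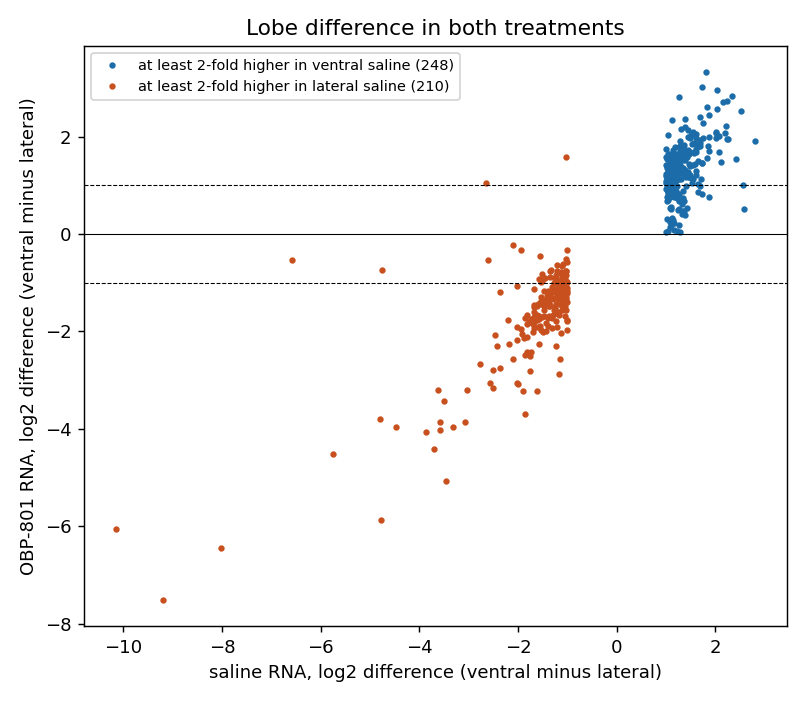
Log2 difference of ventral minus lateral signal in saline RNA (horizontal) and in OBP-801 RNA (vertical) for the 248 ventral (blue) and 210 lateral (orange) probes measured in both. Dashed lines mark 2-fold in OBP-801 RNA. All blue points lie above 0 and all but 2 orange points below it.

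In OBP-801 RNA the 3 most lateral transcripts also had a measurable ventral signal. ENSRNOG00000033972 had 1032 net units in ventral OBP-801 RNA and 65471 in the lateral one, the latter at the detector ceiling, so the lateral lobe was at least 66.2-fold higher. ENSRNOG00000013776 had 280 net units in the ventral and 49586 in the lateral lobe under OBP-801, 182-fold higher in the lateral lobe. The third probe had 195 and 16383 net units, 87.6-fold higher in the lateral lobe. The ventral signal of all 3 was below the Cy5 floor in saline and above the Cy3 floor in OBP-801 RNA. So was that of 18 of the 51 lateral probes below the floor in ventral saline RNA, beside 73 (21.4%) of all 341 probes that were above the floor in lateral saline RNA alone. In the other lobe it was 1 of 26 ventral probes, beside 40 (11.7%) of all 341 above the floor in ventral saline RNA alone. These probes were chosen for a low saline signal in the lobe concerned, and the floors of the dyes differ. No difference between the treatments was tested, and treatment, dye and animals change together in this step.

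Of the 15 most lateral probes 13 were also at least 2-fold higher in the lateral lobe in OBP-801 RNA, as were 13 of the 15 most ventral ones in the ventral lobe. The 2 lateral exceptions were the fourth and the eighth in rank. The fourth had 529 ventral and 680 lateral net units in OBP-801 RNA, 1.46-fold higher in the lateral lobe. The eighth had 10.9 and 336 net units in saline RNA and 22.4 and 47.8 in OBP-801 RNA, at least 26.9-fold and at least 1.66-fold higher in the lateral lobe. ENSRNOG00000011205 had 129.2 ventral and 14.8 lateral net units in OBP-801 RNA, at least 3.73-fold higher in the ventral lobe. ENSRNOG00000006019 was 1 of the 2 ventral exceptions, with 49.9 and 26.1 net units in OBP-801 RNA, at least 1.43-fold higher in the ventral lobe. The other had 69.2 and 12.8 net units, which after flooring fell just short of the limit.

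The lobe difference moved with position on the array. Over the 24 printed blocks the median log2 difference ran from -0.23 to 0.15, negative in each of blocks 1 to 6 and positive in each of blocks 19 to 24. The calls followed, with 44 ventral and 72 lateral probes in blocks 1 to 6 and 85 and 40 in blocks 19 to 24. With each block centred on its own median, an alternative added after the data were seen, the counts were 254 ventral and 209 lateral, of which 230 and 194 were among the original calls. No Cy5 signal reached the detector ceiling, and 1 of the called probes carried a scanner flag in Cy5.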

How the data were processed

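Amplified RNA was labelled and hybridised by a Toray protocol (per the labels). Scanner files as deposited give spot and local background intensity as medians, reconciled over 3 scanner gains, per the file headers; background was not subtracted. The deposited log2 table holds OBP-801 over saline ratios within an array, as a comparison with the scanner intensities showed (SD of the remainder 1.7e-05 and 2.1e-05), and no lobe levels. It was used only to check the channels.

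Net Cy5 signals (spot less the mean of 5808 blanks, 5% left out at each end) of the 20174 gene probes were quantile normalized between the arrays with limma 3.58.1 in R 4.3.3, floored at 10 blank SDs and compared on the log2 scale. Cy3 was treated alike. Controls were placed on this scale by interpolation. Summaries used Python 3.11.15 and pandas 2.3.3. The members, lists and settings were chosen with earlier results of these data known. Genes were to be named by symbol and in 26 gene lists. As no ID was paired with a symbol, the 2 most ventral and the 2 most lateral IDs of at least 50 net units were named and no list was evaluated; other probes were described after their values were seen.

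Simulated arrays of 20174 probes were made from the lateral signals, with the spot noise of the positive controls and of the blanks and a constant scaling of the ventral side. On them 100% of 4-fold and 3-fold increases and 80% and 86% of 4-fold and 3-fold decreases were called, and 0 of 11388 unchanged probes. With this spot noise that 0 was fixed in advance: the simulation covers technical spot error and no variation between arrays or animals. The changed probes were drawn from those above the lateral limit and were changed on the ventral side. Increases therefore started from a clear signal, while decreases of dim probes could end at the floor. The shares called thus cannot be compared between the directions. The positive controls had means of 6380 to 14783 net units, against gene probe medians of 23.7 in ventral and 20.6 in lateral RNA. The spot error of dim probes may therefore differ from the one simulated. The number of arrays limits the precision.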

Additional observations from a re-analysis of the deposited data

Results flagged for a closer look

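In 2 probes the lobe difference was at least 2-fold in opposite directions in saline and OBP-801 RNA, which was not tested because each lobe has 1 array. The first had 16.5 net units in ventral and 92.7 in lateral saline RNA, a log2 difference of -2.66, and 72.2 and 24.0 net units in OBP-801 RNA, where the log2 difference was 1.05 with the lateral signal below the floor. The second had 16.2 and 28.4 net units in saline RNA, a log2 difference of -1.02, and 149.7 and 41.7 net units in OBP-801 RNA, a log2 difference of 1.58.

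Signal was also present in spots outside the gene probes. Spots described as having no probe exceeded the blanks by 10 SD in Cy5 in 1.61% of 809 ventral and 7.54% of the lateral cases, against 0.310% and 0.207% of the blank spots. Of those above the common floor, 0 were 2-fold higher in ventral and 1 in lateral. Quality control spots exceeded the same limits in 44.7% of 521 ventral and 37.4% of the lateral cases. Of the 202 quality control spots above the common floor in at least 1 lobe, 1 was at least 2-fold higher in ventral and 10 in lateral.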

How the results depend on the processing

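The 2-fold counts of 256 ventral and 217 lateral probes stayed within 1.5 times under median scaling, cyclic loess, block centring and the limit to probes above the floor in both lobes. They became 56 and 74 with normexp and an offset of 50, 73 and 91 with normexp, loess and Aquantile over both dyes, 483 and 390 with a floor of 2 blank SDs, 774 and 586 at 1.5-fold, 53 and 72 at 3-fold, and 1073 and 1289 with the local background subtracted. The last setting, which also changed the floor rule, and block centring were chosen after seeing the data. The ventral count alone moved to 134 without background subtraction and to 387 without normalization between arrays. The offset, the background left unsubtracted, the fold limits, the lower floor and the limit to both lobes act by construction. For the other settings the cause was not tested. Of the 256 and 217 calls, 56 and 74 remained with normexp, 255 and 214 with cyclic loess and 164 and 108 with the local background subtracted. Under 10 alternatives the log2 difference of ENSRNOG00000011205 ran from 1.31 to 3.27 and that of ENSRNOG00000006019 from 1.17 to 2.79. Under 9 alternatives ENSRNOG00000033972 ran from -10.91 to -7.92 and ENSRNOG00000013776 from -11.35 to -7.16, so none of the 4 changed direction. No paired analysis was possible because there is a single array for either lobe. The gene lists were not run. A lobe level under the floor has only a bound.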
